A study of Homo sapiens with 18 samples.

Results

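The kallikrein-related peptidases are secreted serine proteases, and 10 of their genes were described here across a pair of colorectal cancer cell lines and 3 treatments. The 10 genes were *KLK1*, *KLK5*, *KLK6*, *KLK7*, *KLK8*, *KLK10*, *KLK11*, *KLK12*, *KLK13* and *KLK14*. They were taken by gene name from all 18 arrays, were 10 of 36204 gene names and held 13 of 50599 probes. The family was chosen by the intensity of *KLK12*, because the untreated HTOXAR3 arrays read below those of untreated HT29. For these 10 genes the comparison of the untreated lines is therefore given as a description, without a p-value, and calls there only say which genes passed the same threshold.

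HT29 is a human colorectal adenocarcinoma line sensitive to oxaliplatin (OXA), a platinum drug. HTOXAR3 is its OXA-resistant subline, which the study credits to earlier work and to lasting culture in rising OXA doses. Each line was left untreated, or was treated for 24 h with OXA or with OXA plus Curcumin, a plant polyphenol described as an inhibitor of NF-κB. The labels give 3 replicates a group, which the study calls biological. The OXA dose was 10 µM in HT29 and 30 µM in HTOXAR3, and the Curcumin dose was 10 µM in both. After treatment the lines thus differed in OXA dose as well as in origin, a dose effect and a line effect cannot be told apart there, and each line stands for 1 derivation. No group received Curcumin alone.

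Kallikrein-related peptidases are made as inactive precursors and are activated by removal of a short propeptide, in part by one another. Most of them cut after arginine or lysine, like trypsin, and *KLK7* encodes a member that cuts like chymotrypsin. They are known for shedding of the outer skin, for release of kinins, for cleavage of matrix proteins and protease-activated receptors, and as tumour markers, and their genes lie side by side in one cluster on chromosome 19.

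Each array measured RNA with a single dye, and values are background-corrected and quantile-normalized log2 intensities. Between 52.4% and 63.6% of the spots on an array lay well above background, and the correlation between arrays of one group was at least 0.985. Of the 10 genes, 5 were well above background on all 18 arrays (*KLK1*, *KLK6*, *KLK8*, *KLK10* and *KLK11*), 4 on some of them (*KLK5*, *KLK7*, *KLK12* and *KLK14*), and *KLK13*, by the probe that stands for it, on none. None of their 396 spots was saturated or marked as an outlier. Intensities depend on the probe, so that levels are compared between groups for one probe and never between genes. A gene was called where its Benjamini-Yekutieli adjusted p over all gene names was below 0.05 and its fold change was above 1.2. In a bulk sample, fewer cells of a type and less RNA per cell cannot be told apart.

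The neighbouring genes *KLK10*, *KLK11* and *KLK12* had lower mean intensities in HTOXAR3 than in HT29 in each treatment. The differences of *KLK10* and *KLK11* were called after OXA and after OXA plus Curcumin, and those of *KLK12* were not. On the RefSeq gene order these genes follow each other without another gene between them, after *KLK9* and before *KLK13*. Their probes lie on the minus strand of chromosome 19 (GRCh37) at chr19:51516031-51516090 for *KLK10*, chr19:51525626-51525685 for *KLK11* and chr19:51532360-51532419 for *KLK12*. The last 30 bases of each probe are shown because the line difference of these genes rests on 1 probe each, with the poly(A) signal letters AATAAA in capitals where they occur. The *KLK10* stretch is rich in T, with 21 of 30 bases.
KLK10 probe end: gatgctctgttttttgtttgtttgtttttt
KLK11 probe end: taatcaacctggggttcgaaatcagtgaga
KLK12 probe end: aagtgtgcaatagtctggAATAAAtataaa

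The sequence before the outermost transcription start of each of the 3 genes is shown because these neighbours had lower means in HTOXAR3. These are 150 bases on the minus strand of GRCh38.p14 from RefSeq, with CpG dinucleotides in capitals, at chr19:51019862-51020011 for *KLK10*, chr19:51027647-51027796 for *KLK11* and chr19:51035003-51035152 for *KLK12*.
KLK10: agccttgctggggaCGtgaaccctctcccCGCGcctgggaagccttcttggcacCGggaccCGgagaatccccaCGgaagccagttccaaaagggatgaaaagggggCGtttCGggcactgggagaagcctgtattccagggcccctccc
KLK11: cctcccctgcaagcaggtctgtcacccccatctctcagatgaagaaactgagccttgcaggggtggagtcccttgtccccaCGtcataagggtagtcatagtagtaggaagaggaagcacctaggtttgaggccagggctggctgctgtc
KLK12: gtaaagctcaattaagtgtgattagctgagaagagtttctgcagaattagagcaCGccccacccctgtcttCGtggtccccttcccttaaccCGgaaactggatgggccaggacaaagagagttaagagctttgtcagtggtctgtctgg

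The windows of 250 bases before these starts held 8, 3 and 5 CpG dinucleotides, against a median of 11 over 35116 RefSeq windows of that length. RefSeq windows were matched for 8 of the 10 genes, 15 windows in all. On either strand, the TATA box letters TATAAA (10.7% of all windows) were in the windows of none of the 8 genes. The AP-1 site letters TGANTCA (6.57%) were likewise in none. The NF-κB consensus motif (9.96%) was in a window of *KLK7* and *KLK10*. The E-box letters CANNTG (61.8% of all windows) and the GC box letters GGGCGG (42.6%) were each in a window of the same 5 genes, *KLK6*, *KLK7*, *KLK11*, *KLK13* and *KLK14*. Such matches describe the letters of these windows and do not show binding.

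*KLK12* encodes a trypsin-like protease that can activate other members of the family. In untreated HT29 its log2 intensities were 7.47, 7.61 and 8.14, and in untreated HTOXAR3 they were 5.64, 5.01 and 5.23, the second of which was not well above background. These are the values the family was selected on, and they differed by -2.45 (HTOXAR3 minus HT29, SE 0.26), a 5.46-fold lower intensity in HTOXAR3. With an offset of 50 added before the log2 step, which shrinks changes of dim probes, the difference was -1.56.

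After OXA the *KLK12* intensities were 6.26, 6.20 and 6.52 in HT29 and 5.86, 5.84 and 4.78 in HTOXAR3. The groups did not overlap, which with 3 arrays each is no test of a difference. The difference of -0.83 (SE 0.26) was not called (adjusted p = 0.316), but was with Benjamini-Hochberg adjustment (limma, adjusted p = 0.0285). It was -0.48 without replicate 3 of HTOXAR3 with OXA, the lowest of the 18 values, and -1.22 on the scanner's processed signal, where it was called (adjusted p = 0.0222).

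After OXA plus Curcumin the values were 6.67, 6.66 and 6.54 in HT29 and 5.97, 6.15 and 6.04 in HTOXAR3. The difference of -0.57 (SE 0.26) was not called either (adjusted p = 1), and the groups again did not overlap. As a description of the arrays that chose the family, OXA minus untreated was -1.42 (SE 0.26) in HT29, while untreated and OXA-treated HTOXAR3 overlapped, with a difference of 0.20 (SE 0.26). The changes from untreated also differed between the lines, as descriptions that reuse the untreated arrays. The change in HTOXAR3 lay above the change in HT29 by 1.62 (SE 0.36) for OXA and by 1.88 (SE 0.36) for OXA plus Curcumin. The mean of HT29 fell with both treatments. Untreated HTOXAR3 read only 5.01 to 5.64, with 2 of 3 arrays well above background. A fall as large as in HT29 may not have been measurable there, so these values do not show a stronger response of HTOXAR3. In order of their means, untreated HT29 was highest, followed by HT29 with OXA plus Curcumin, HT29 with OXA, HTOXAR3 with OXA plus Curcumin, HTOXAR3 with OXA and untreated HTOXAR3, and of these neighbours only the last pair overlapped.

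*KLK11*, next to it, encodes a trypsin-like protease found in brain, prostate and other epithelia, and had the largest line difference of the 10 genes in each of the 3 treatments. Its probe was spotted 10 times on each array, and the SD between spots of one array was between 0.116 and 0.190. Untreated HT29 gave 13.27, 13.38 and 13.25, and untreated HTOXAR3 gave 9.72, 9.70 and 9.68. The difference was -3.60 (SE 0.09), or 12.2-fold.

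After OXA *KLK11* was 13.52, 13.60 and 13.64 in HT29 and 10.13, 10.19 and 10.12 in HTOXAR3. It was 10.9-fold lower in HTOXAR3 (log2 difference -3.44, SE 0.09, adjusted p = 3.27e-11). Within the arrays of slide 2 and of slide 3 alone the difference was -3.47 and -3.49.

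After OXA plus Curcumin the values were 13.06, 13.33 and 13.45 in HT29 and 9.45, 9.66 and 9.48 in HTOXAR3. The line difference was -3.75 (SE 0.09, adjusted p = 1.42e-11), a 13.5-fold lower intensity. No array of HTOXAR3 came near the lowest array of HT29 under any treatment.

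*KLK10* encodes a secreted protein that was first described as lost from breast cancer cells. It was 8.99, 8.92 and 9.20 in untreated HT29 and 7.99, 8.53 and 8.13 in untreated HTOXAR3, a difference of -0.82 (SE 0.14). Within slides this untreated difference was -0.66 and -1.07.

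After OXA *KLK10* stood at 10.57, 10.57 and 10.76 in HT29 and at 9.45, 9.48 and 9.48 in HTOXAR3. It was 2.24-fold lower in HTOXAR3 (-1.16, SE 0.14, adjusted p = 0.000177), and the groups did not overlap. After OXA plus Curcumin it was 10.41, 10.40 and 10.70 in HT29 and 9.13, 9.38 and 9.46 in HTOXAR3, with a difference of -1.18 (SE 0.14, adjusted p = 0.000164).

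**Figure D1:**
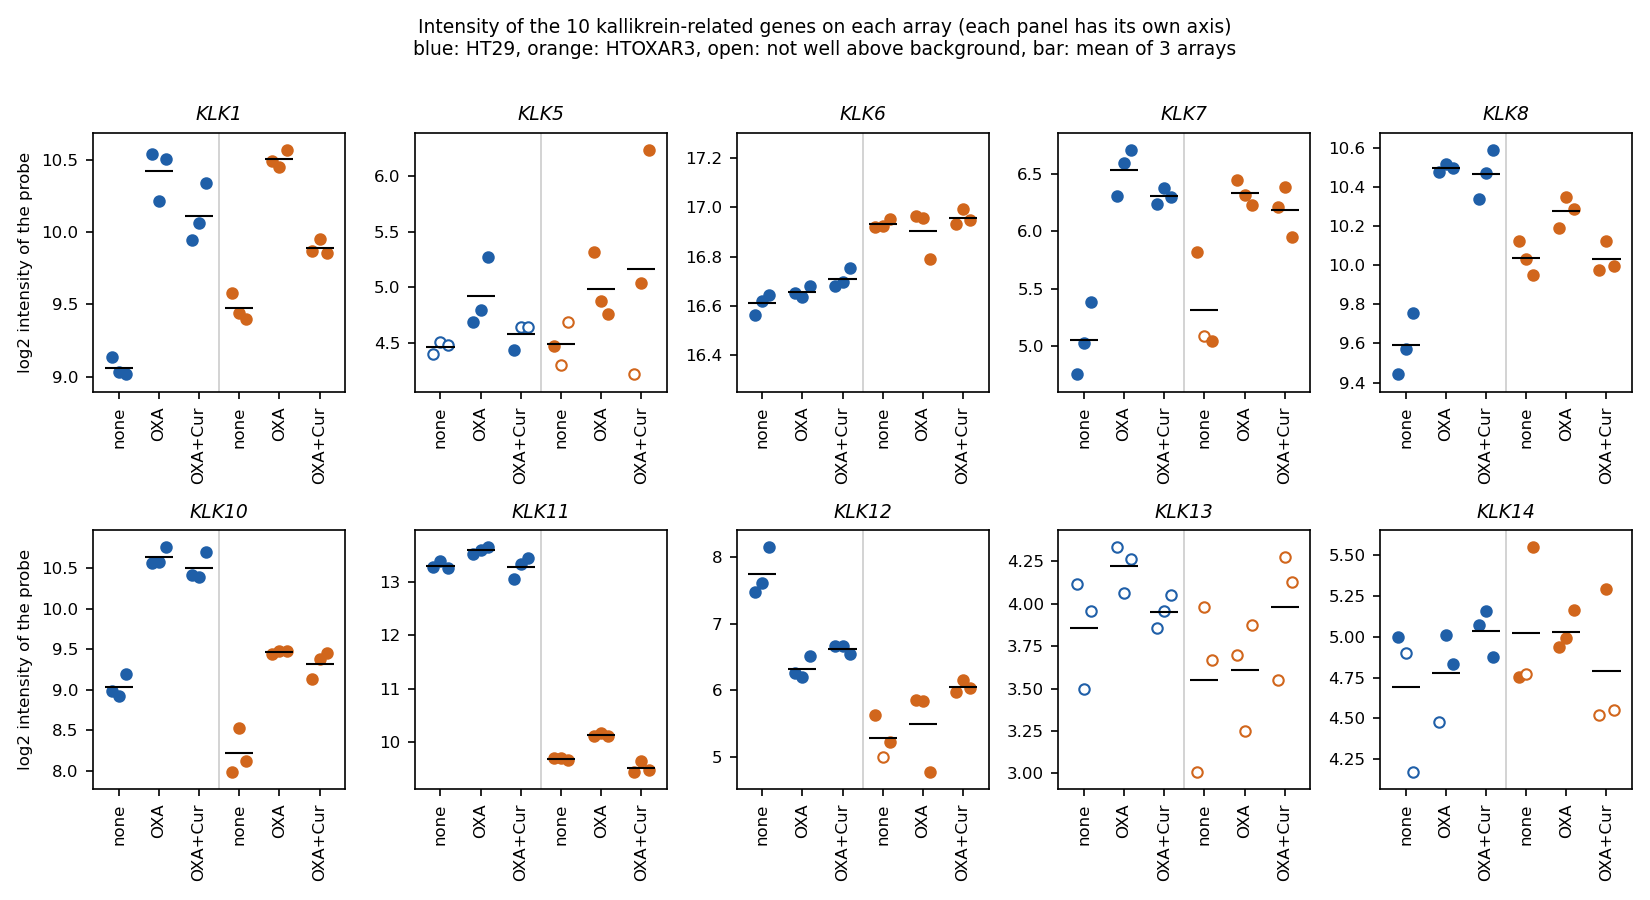
Log2 intensity of the probe for each of the 10 genes (vertical axis, a separate range in each panel) on each array, by treatment (none, OXA, OXA plus Curcumin) in HT29 (blue) and HTOXAR3 (orange). Open points were not well above background and bars are means of 3 arrays; *KLK11* lay at 13.06 or above on every HT29 array and at 10.19 or below on every HTOXAR3 array.

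Other genes along the cluster were read beside these neighbours. *KLK9*, whose gene lies beside *KLK10* and whose probe was well above background on all 18 arrays, differed between the lines by 0.00 without treatment, -0.29 after OXA and -0.13 after OXA plus Curcumin (SE 0.22 each), and was not called. *CTU1*, the first gene beyond *KLK14*, differed by 0.16, 0.03 and 0.12 and was not called. *KLK8*, on the other side of *KLK9*, was higher in untreated HTOXAR3, as given below.

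In a window reaching 300 kb past the outermost probes of the family, 32 other gene names had a probe, 17 of them well above background on all arrays. Of the 32, 4 were called between the untreated lines, 5 after OXA and 3 after OXA plus Curcumin. These were beside 11.5%, 14.1% and 13.9% of all gene names. In at least 1 of the 3 line comparisons 5 were called. *CLEC11A* was 0.33 higher in HTOXAR3 both untreated and after OXA, and *C19orf48* was higher by 0.31, 0.79 and 0.47 in the 3 treatments. *ETFB*, a mitochondrial electron carrier subunit, was lower, at -0.39, -0.59 and -0.61, *VSIG10L* was lower, at -0.29 and -0.39, after OXA and OXA plus Curcumin, and *CLDND2* was 2.29-fold higher without treatment and 2.73-fold higher (1.45 on the log2 scale) after OXA. The *CLDND2* differences were larger in size than those of *KLK10* in both of these comparisons and than that of *KLK12* after OXA, and smaller than those of *KLK11*. No called neighbour lay between *KLK1* and *CTU1*.

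**Figure D2:**
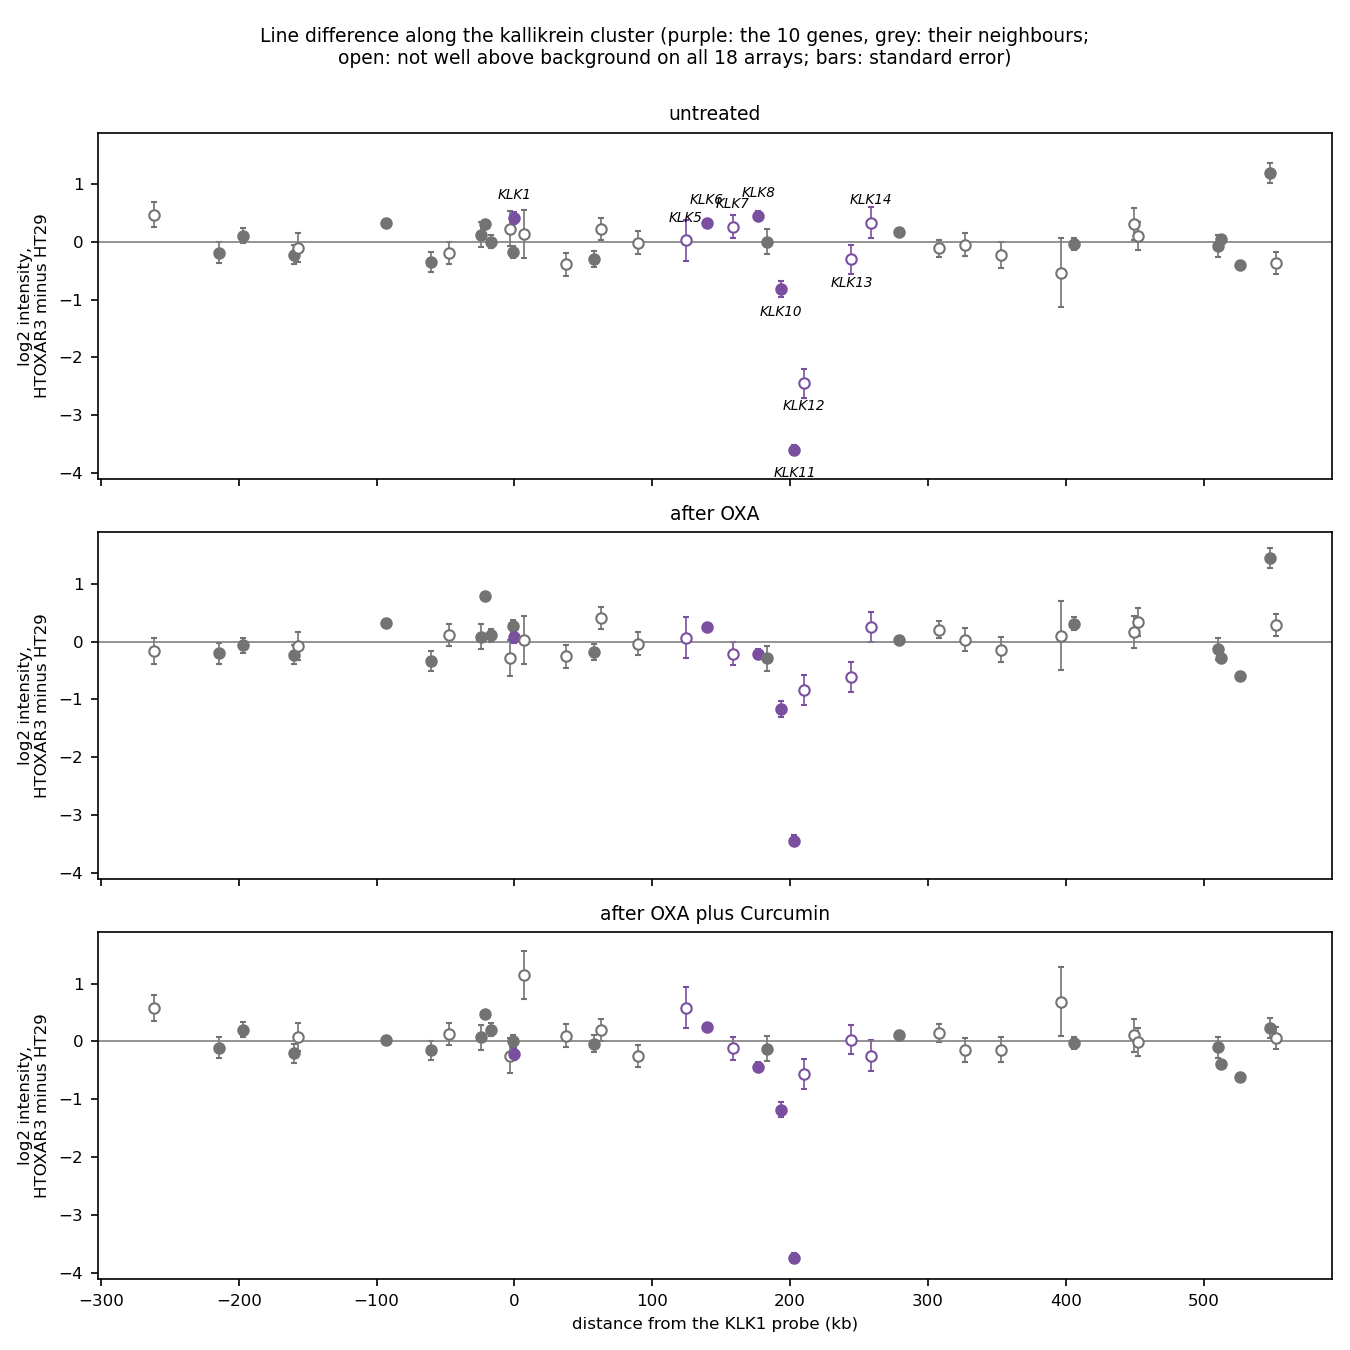
Log2 difference HTOXAR3 minus HT29 (vertical axis, bars are standard errors) against the distance of each probe from the *KLK1* probe in kb, untreated, after OXA and after OXA plus Curcumin. *KLK10*, *KLK11* and *KLK12* (purple, at 193.6, 203.2 and 209.9 kb) lie below 0 in all 3 panels, with *KLK11* at -3.60, -3.44 and -3.75, while most neighbours (grey) lie near 0.

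Counted over the family, 5 of the 10 genes passed the call rule between the untreated lines, 2 higher and 3 lower, beside 11.5% of all gene names called in either direction, 6.26% higher and 5.28% lower. These counts use the contrast on which the family was chosen, include *KLK12* itself, and are given as a description. Without *KLK12* they were 4 of 9, 2 higher and 2 lower. After OXA, 2 of the 10 were called, both lower, beside 14.1% of all gene names (7.14% higher and 6.98% lower). After OXA plus Curcumin, 3 of the 10 were called, all lower, beside 13.9% of all gene names. With so few genes, 2 of 10 is close to the share among all names. The median difference of the 10 genes was -0.21 after OXA and -0.23 after OXA plus Curcumin, against 0.00 and 0.01 over all names.

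*KLK6*, a trypsin-like protease known from the nervous system and from carcinomas, went the other way. Its brighter probe, at the 3′ end of the gene (GRCh37 chr19:51461888-51461947), read 16.56, 16.62 and 16.65 in untreated HT29 and 16.92, 16.92 and 16.95 in untreated HTOXAR3, a difference of 0.32 (SE 0.06). After OXA the values were 16.65, 16.64 and 16.68 in HT29 and 16.96, 16.96 and 16.79 in HTOXAR3. That difference of 0.25 (SE 0.06) had an adjusted p of 0.0482 but, at 1.19-fold, was under the fold limit and was not called, and the same held after OXA plus Curcumin (0.25, adjusted p = 0.0462). A second *KLK6* probe (chr19:51466725-51466784) was 0.49 higher in untreated HTOXAR3, 0.29 after OXA and 0.32 after OXA plus Curcumin (SE 0.07 each), so both probes had the same direction. The higher *KLK6* intensity was called after OXA on the scanner's processed signal (0.37, adjusted p = 0.00782) and without replicate 3 of HTOXAR3 with OXA (0.30, adjusted p = 0.0117).

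*KLK8*, which encodes neuropsin, a trypsin-like protease of brain and skin, changed the sign of its line difference with treatment. Untreated, it was 9.44, 9.57 and 9.75 in HT29 and 10.13, 10.03 and 9.95 in HTOXAR3, a difference of 0.44 (SE 0.09), which was 0.50 within slide 2 and 0.19 within slide 3. After OXA it was 10.47, 10.51 and 10.50 in HT29 and 10.19, 10.35 and 10.29 in HTOXAR3, a difference of -0.22 (SE 0.09, adjusted p = 1). After OXA plus Curcumin it was 10.34, 10.47 and 10.59 in HT29 and 9.98, 10.13 and 9.99 in HTOXAR3.

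This last difference of -0.43 (SE 0.09) was called (adjusted p = 0.0207), with no overlap between the groups, and was -0.43 and -0.53 within slides 2 and 3. The call was lost in 7 of 19 alternatives. Among these it was lost when any 1 of 4 arrays of that treatment was left out. The adjusted p was 0.0905 and 0.128 without HT29 replicates 2 and 3, and 0.112 and 0.109 without HTOXAR3 replicates 1 and 3.

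*KLK1*, tissue kallikrein, which releases kinins from kininogen, was 9.14, 9.03 and 9.02 in untreated HT29 and 9.58, 9.44 and 9.40 in untreated HTOXAR3, a difference of 0.41 (SE 0.10). The lines overlapped after OXA, with 10.54, 10.22 and 10.51 in HT29 and 10.49, 10.45 and 10.57 in HTOXAR3 (0.08, SE 0.10, adjusted p = 1). They also overlapped after OXA plus Curcumin, at -0.22 (SE 0.10, adjusted p = 1).

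*KLK7*, *KLK5* and *KLK14* encode proteases that act in the shedding of skin cells. *KLK7* read 4.76, 5.03 and 5.39 in untreated HT29 and 5.82, 5.09 and 5.05 in untreated HTOXAR3, where 1 of the 3 arrays was not well above background. Its line differences of 0.26, -0.21 and -0.12 (SE 0.20 each) in the 3 treatments all joined overlapping groups.

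*KLK5* was well above background on 10 of 18 arrays, none of them untreated HT29, and *KLK14* on 12. The highest *KLK5* value, 6.23, came from 1 array of HTOXAR3 with OXA plus Curcumin, whose group also held the lowest of the 18, 4.22. Neither gene was called in any comparison. *KLK13*, a trypsin-like protease described in testis and other tissues, was above background by its brightest probe on none of the arrays, its 3 probes were not called anywhere, and no fold is given for it.

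**Figure D3:**
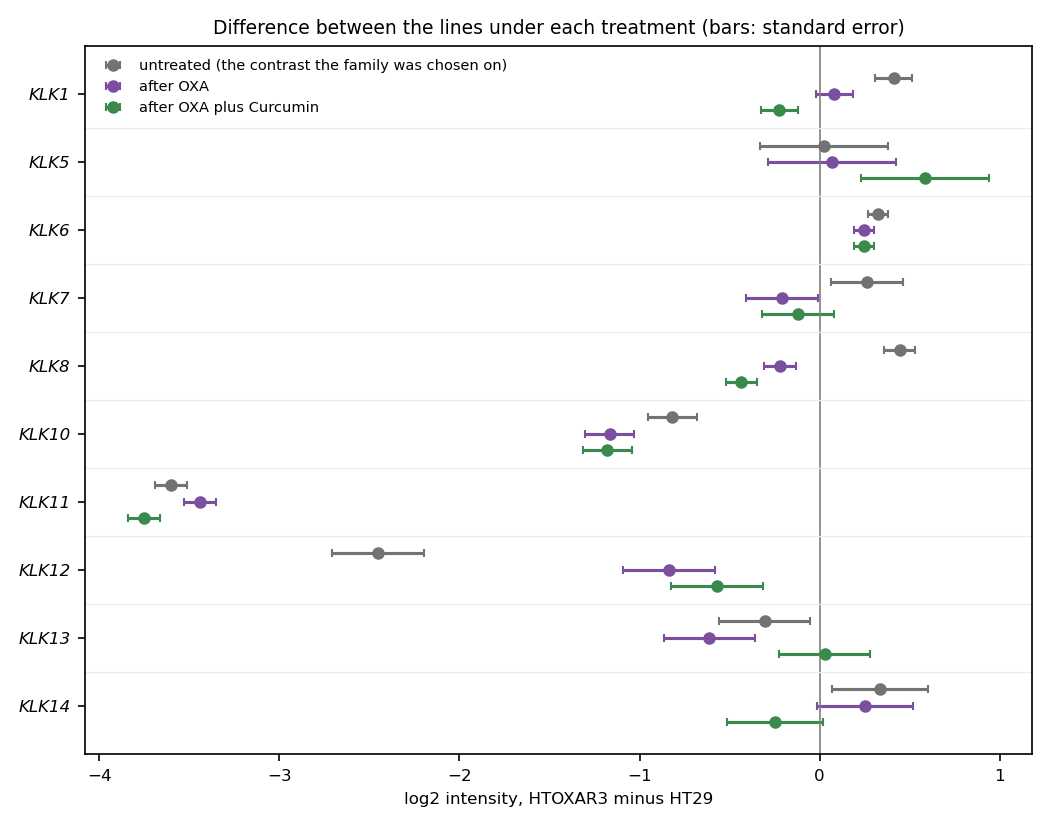
Log2 difference HTOXAR3 minus HT29 (horizontal axis, bars are standard errors) for each of the 10 genes, untreated (grey), after OXA (purple) and after OXA plus Curcumin (green). *KLK10* and *KLK11* lie left of 0 in every treatment, *KLK12* moves from -2.45 to -0.83 and -0.57, and *KLK8* crosses from 0.44 to -0.22 and -0.43.

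OXA raised several of these genes in both lines. In HT29, 4 of the 9 genes other than *KLK12* were called after OXA, all higher, beside 15.9% of all gene names called, 8.33% higher and 7.62% lower. In HTOXAR3, 4 were called, all higher, beside 10.2% of all gene names, 5.31% higher and 4.94% lower. That count was 2 when any 1 of 5 of the 6 arrays was left out, 3 without replicate 1 of untreated HTOXAR3, and 1 when only these groups were fitted. The median of the 9 genes was 0.45 in each line, against -0.01 and 0.01 over all names. In HT29 this median is the value of *KLK5*, which was not well above background on the untreated arrays there. These comparisons share the untreated arrays on which the family was chosen.

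*KLK10* rose in both lines, 3.03-fold in HT29 (1.60, SE 0.14, adjusted p = 7.98e-06) and 2.38-fold in HTOXAR3 (1.25, SE 0.14, adjusted p = 0.000184), from the values given above. OXA thus raised *KLK10* in both lines while it stayed lower in HTOXAR3 than in HT29 at each treatment. The difference between both responses was -0.35 (SE 0.19, adjusted p = 1).

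*KLK1* rose 2.57-fold in HT29 (1.36, SE 0.10, adjusted p = 2.83e-06) and 2.04-fold in HTOXAR3 (1.03, SE 0.10, adjusted p = 8.97e-05), with no overlap in either line. Within slides its rise ranged from 1.18 to 1.49 in HT29 and was 0.98 and 1.11 in HTOXAR3.

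*KLK7* rose from the values above to 6.31, 6.60 and 6.71 in HT29 (1.48, SE 0.20, adjusted p = 0.000651) and to 6.44, 6.32 and 6.23 in HTOXAR3 (1.01, SE 0.20, adjusted p = 0.0255). As a dim probe it depended on the background step, and with an offset of 50 the rise was 0.78 in HT29 and 0.53 in HTOXAR3, while on the processed signal it was 1.91 in HT29, above the 1.61 of *KLK10*, and 1.15 in HTOXAR3. In HTOXAR3 its call was lost when any 1 of 5 of the 6 arrays was left out (adjusted p between 0.068 and 0.154) and with the replicate number as a block (adjusted p = 0.0621).

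*KLK8* rose in HT29 by 0.91 (SE 0.09, adjusted p = 2.84e-05), and in HTOXAR3 it was 0.24 higher (SE 0.09, adjusted p = 0.821). The difference between these responses, -0.66 (SE 0.12), was not called (adjusted p = 0.0914). It was called with an offset of 50 (-0.63, adjusted p = 0.0247) and without replicate 3 of untreated HT29 (-0.75, adjusted p = 0.0373). None of the 9 genes was called for the difference of the responses to OXA, beside 1.01% of all gene names, with 2 of them at an unadjusted p below 0.05 and 1, *KLK8*, called with Benjamini-Hochberg adjustment.

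For OXA plus Curcumin against untreated, the response of *KLK8* was lower in HTOXAR3 than in HT29, at -0.88 on the log2 scale (SE 0.12, adjusted p = 0.0151), and this was the only call among the 9 genes, beside 0.856% of all gene names. Within slides 2 and 3 the value was -0.93 and -0.72. The call was lost when any 1 of 6 of the 12 arrays was left out, with adjusted p between 0.0525 and 0.0609.

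*KLK11* rose by 0.45 after OXA in HTOXAR3 (SE 0.09, adjusted p = 0.0246), and in HT29 it was 0.29 higher (SE 0.09, adjusted p = 0.305), without overlap in either line. The call in HTOXAR3 was lost without any 1 of its 6 arrays (adjusted p between 0.0817 and 0.13) and with the slide as a block (0.43, adjusted p = 0.055). The responses differed by 0.16 (SE 0.13, adjusted p = 1), small beside the difference between the lines. By its brighter probe *KLK6* differed by 0.05 (SE 0.06) in HT29 and -0.03 (SE 0.06) in HTOXAR3 after OXA and was not called. The second *KLK6* probe differed by 0.20 (SE 0.07) in HT29 and by -0.005 (SE 0.07) in HTOXAR3. *KLK5* was not well above background in untreated HT29. Its mean there after OXA was at least 1.31-fold higher, measured against the lowest signal well above background on each untreated HT29 array. This bound leaves out the spread between arrays (log2 difference 0.45, SE 0.35), and the change was not called (adjusted p = 1).

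Adding Curcumin to OXA lowered a pair of the genes in HTOXAR3 and none in HT29 by the call rule. In HTOXAR3, 2 of the 10 genes were called, both lower, beside 8.83% of all gene names. In HT29, 0 were called with limma, beside 5.53% of all gene names, 2 were at an unadjusted p below 0.05 and 1 was called with Benjamini-Hochberg adjustment.

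*KLK1* was 10.49, 10.45 and 10.57 with OXA and 9.87, 9.95 and 9.86 with OXA plus Curcumin in HTOXAR3. It was 1.53-fold lower with Curcumin (-0.61, SE 0.10, adjusted p = 0.00879), with no overlap, and the call was lost without replicate 3 of HTOXAR3 with OXA (adjusted p = 0.0564) or replicate 3 with OXA plus Curcumin (adjusted p = 0.0559). In HT29 the groups overlapped, at 10.54, 10.22 and 10.51 with OXA and 9.95, 10.06 and 10.34 with OXA plus Curcumin (-0.31, SE 0.10, adjusted p = 0.807).

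*KLK11* was lower with Curcumin in HTOXAR3, at -0.62 on the log2 scale (fold 1.53, SE 0.09, adjusted p = 0.00246), from the values given above. In HT29 it was -0.31 (SE 0.09, adjusted p = 0.388). The effect of Curcumin did not pass the test for a difference between the lines in either gene, at -0.31 (SE 0.13, adjusted p = 1) for *KLK11* and -0.30 (SE 0.15, adjusted p = 1) for *KLK1*. In that comparison 0 of the 10 genes were called, beside 0.135% of all gene names, with 1 at an unadjusted p below 0.05 and none with Benjamini-Hochberg adjustment.

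For *KLK12*, adding Curcumin gave differences of 0.30 (SE 0.26, adjusted p = 1) in HT29 and 0.56 (SE 0.26, adjusted p = 1) in HTOXAR3. The second was 0.21 without replicate 3 of HTOXAR3 with OXA. *KLK10*, *KLK7* and *KLK8* differed by -0.13, -0.23 and -0.03 in HT29 and by -0.14, -0.15 and -0.24 in HTOXAR3, and none was called.

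**Figure D4:**
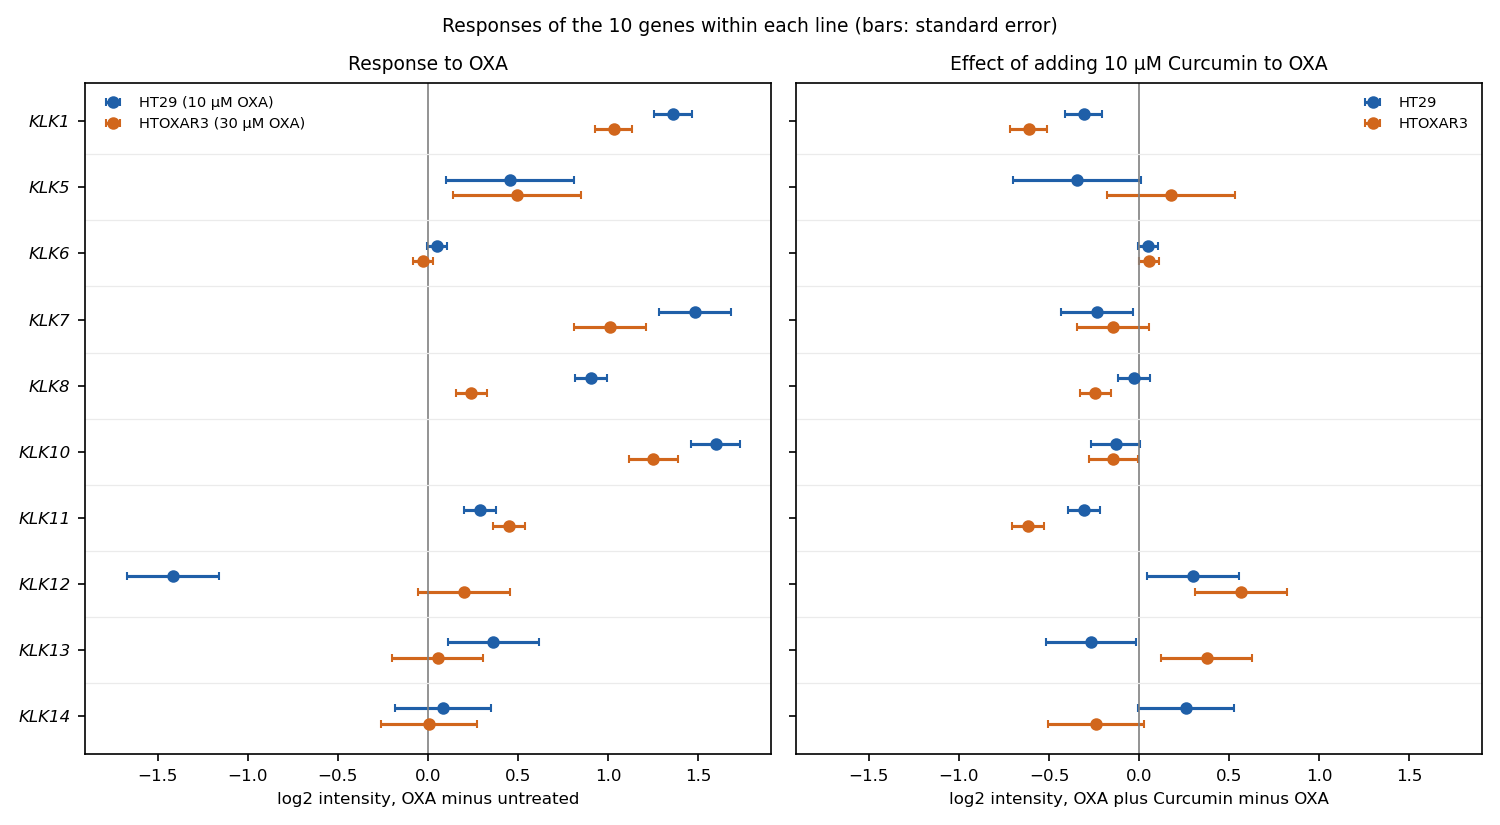
Log2 differences within each line (horizontal axes, bars are standard errors) for each of the 10 genes, OXA minus untreated on the left and OXA plus Curcumin minus OXA on the right, HT29 in blue and HTOXAR3 in orange. *KLK1*, *KLK7* and *KLK10* lie at 1.01 or above for OXA in both lines, *KLK8* lies at 0.91 in HT29 and 0.24 in HTOXAR3, and *KLK1* and *KLK11* in HTOXAR3 lie at -0.61 and -0.62 for Curcumin.

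The 10 genes did not form one pattern over the 18 arrays. As descriptions over 18 arrays that share line, treatment and slide, Pearson's r was 0.88 between *KLK1* and *KLK7*, 0.86 between *KLK1* and *KLK8* and 0.85 between *KLK7* and *KLK8*. *KLK10*, which also rose after OXA, had 0.66, 0.72 and 0.71 with *KLK1*, *KLK7* and *KLK8*. Along the run of neighbours it was 0.72 between *KLK11* and *KLK12*, 0.65 between *KLK10* and *KLK11* and 0.24 between *KLK10* and *KLK12*, which moved in opposite directions after OXA in HT29. It was -0.93 between *KLK11* and *KLK6*, whose line differences were opposite. Every correlation with *KLK12* includes the untreated arrays on which the family was chosen. Among 21796 gene names, the highest correlations with *KLK12* were those of *ZFAT* (0.93), *LOC493754* (0.93), *XLOC_000914* (0.92), *CA13* (0.92) and *NOL9* (0.91). Among the highest for *KLK11* were *KBTBD11* (1.00), *ZC4H2* (1.00) and *TOX3* (0.99), and for *KLK10* *CYP2S1* (0.99) and *ZNF219* (0.98). For *KLK1* they were *MYL6B* (0.98), *TCTEX1D2* (0.97) and *FOXL1* (0.97), for *KLK6* *DIP2A* (0.97), *MSX2P1* (0.96) and *LEMD2* (0.96), and for *KLK8* *CACNB3* (0.94), *PDK2* (0.94) and *ISG15* (0.93).

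The other genes of the family on the array were *KLK2*, *KLK3*, *KLK4*, *KLK9*, *KLK15* and the pseudogene *KLKP1*. None of these 6 was called in any comparison, and 1, *KLK15*, reached an unadjusted p below 0.05 in a comparison of the lines, after OXA plus Curcumin, where its probe was well above background on 1 array of HTOXAR3 and none of HT29 (adjusted p = 0.679), and no fold is given for it. *KLK2* (-0.29, -0.17 and -0.04, SE 0.14) and *KLK3*, prostate-specific antigen (-0.39, -0.25 and 0.10, SE 0.20), were not called in any of the 3 treatments. *KLK4* was well above background on 1 array and *KLKP1* on 3.

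Lists of genes around the proteases were read beside the share of all gene names called between the lines, 11.5% untreated, 14.1% after OXA and 13.9% after OXA plus Curcumin. Of 15 inhibitor genes, 6 were called between the untreated lines (5 higher and 1 lower), 5 after OXA (3 higher and 2 lower) and 5 after OXA plus Curcumin (3 higher and 2 lower). *PI3*, which encodes the elastase inhibitor elafin, was higher in HTOXAR3 by 2.48, 2.36 and 2.59 without treatment, after OXA and after OXA plus Curcumin. *SERPINA1*, alpha-1-antitrypsin, was higher by 1.46, 1.41 and 1.12, and *SERPINA3*, alpha-1-antichymotrypsin, by 1.59, 1.17 and 0.79. *SLPI*, the secretory leukocyte protease inhibitor, was lower, at -1.23, -0.96 and -0.74.

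Of 13 other epithelial serine and metalloproteases, 4 were called between the untreated lines (2 higher and 2 lower), 4 after OXA (all lower in HTOXAR3) and 3 after OXA plus Curcumin (1 higher and 2 lower). *TMPRSS2* was lower, at -1.08, -1.44 and -1.69, and so was *TMPRSS4*, at -0.71, -0.79 and -0.94, in the 3 treatments, both membrane-bound proteases. *PRSS22*, tryptase epsilon, was called higher by 0.35 untreated and by 0.55 after OXA plus Curcumin, was not called after OXA (0.10, adjusted p = 1), and rose after OXA by 1.30 in HT29 and 1.05 in HTOXAR3.

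Of 9 receptor and kinin genes, *F2R* and *F2RL1*, the protease-activated receptors 1 and 2, were called between the untreated lines and after OXA, and *F2RL1* alone after OXA plus Curcumin. The line differences in the 3 treatments were 0.96, 0.56 and -0.37 for *F2R* and 0.46, 0.34 and 0.43 for *F2RL1*. *F2R* fell by 0.53 with Curcumin in HT29 and by 1.46 in HTOXAR3, and its response to OXA plus Curcumin differed between the lines by -1.32 (adjusted p = 0.00247). Of 14 substrate genes, 2 were called in each line comparison, a share near that of all gene names. *PLAU*, the urokinase plasminogen activator, was higher in HTOXAR3 by 1.44, 0.67 and 0.92, and *PLAUR*, its receptor, was lower, at -1.30, -0.91 and -0.39. Of 9 nuclear receptor genes, which include regulators known for several kallikreins, 0 were called between the lines without treatment and after OXA and 2 after OXA plus Curcumin, and *PGR* and *NR3C1* were well above background on no array.

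Markers of cell types were read beside these results. Of 11 colonic epithelial markers, 8 were well above background on all 18 arrays and none on no array, and 2 were called lower in HTOXAR3 after OXA, *VIL1* (-2.43) and *LGALS4* (-2.26), both also lower without treatment (-1.61 and -2.08) and after OXA plus Curcumin (-2.43 and -2.73). *CDH17* was well above background on 5 HT29 arrays and no HTOXAR3 array, and was called at least 1.40-fold lower in untreated HTOXAR3 and at least 1.34-fold lower after OXA plus Curcumin. The summed linear intensity of the 11 markers ranged from 728597 to 757969 in untreated HT29 and from 752743 to 774013 in untreated HTOXAR3, and after OXA from 795338 to 829268 and from 751155 to 760788. After OXA plus Curcumin it ranged from 815463 to 867773 and from 862032 to 863736.

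Of 7 keratinocyte markers, *KRT5* and *LOR* were well above background on no array, and 2 were called higher in HTOXAR3 in each treatment. *IVL*, involucrin, was well above background on all 9 HTOXAR3 arrays and no HT29 array, and was at least 16.7-fold, 5.23-fold and 6.74-fold higher in HTOXAR3 in the 3 treatments, by the same floor on each dim array. *KRT14* differed by 1.26, 0.67 and 0.85. Their summed intensity ranged from 20943 to 23623 in untreated HT29 and from 25082 to 25879 in untreated HTOXAR3, from 23622 to 24526 and from 23906 to 24647 after OXA, and from 25306 to 28725 and from 25700 to 27957 after OXA plus Curcumin.

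Of 6 mesenchymal markers, *COL1A2*, *COL3A1* and *THY1* were well above background on no array and no marker was on all 18, and of 6 leukocyte markers, 4 were on all 18. Markers also moved with treatment, in both directions. Of the 11 colonic markers, OXA in HT29 gave 1 call higher and 1 lower, OXA in HTOXAR3 gave 0 with limma (3 at an unadjusted p below 0.05), and adding Curcumin gave 0 in HT29 (2 at an unadjusted p below 0.05) and 2 higher and 2 lower in HTOXAR3. *VIL1* rose by 1.06 after OXA in HT29 and was 0.24 higher in HTOXAR3 (adjusted p = 0.413), with a called difference between these responses of -0.82 (adjusted p = 0.00448), and *LGALS4* fell by 0.62 with Curcumin in HTOXAR3.

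Among the keratinocyte markers, *KRT14* rose by 2.08 in HT29 and 1.49 in HTOXAR3 after OXA and fell by 1.17 and 1.00 with Curcumin, while *IVL* fell by 1.85 after OXA in HTOXAR3. Of the 6 leukocyte markers, OXA in HT29 and adding Curcumin in each line gave 1 call higher and 1 lower, and OXA in HTOXAR3 gave 1 higher. Their summed intensity ranged from 446 to 467, from 459 to 501 and from 547 to 597 in HT29 without treatment, with OXA and with OXA plus Curcumin, and from 422 to 459, from 483 to 534 and from 610 to 671 in HTOXAR3, where the 3 treatments did not overlap. In the comparison of the untreated lines, 1 leukocyte marker was called higher in HTOXAR3. Of the 6 mesenchymal markers, 1 was called higher for OXA in HT29, where their summed intensity ranged from 73.2 to 87.4 untreated and from 98.8 to 112 with OXA. The part of these markers in the differences of the kallikreins between lines and treatments was not tested.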

How the data were processed

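RNA of 18 cultures (6 groups of 3) had been amplified, labelled with Cy3 and hybridised by the authors to one-colour Agilent arrays with 62976 spots. The deposited scanner files hold linear spot intensity and local background, not yet normalized, as given by the Feature Extraction software per the file headers. For arrays, the number of arrays limits the precision.

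Following the methods of the study, intensities were background-corrected with normexp and quantile-normalized. Here this was done on mean signals with an offset of 0 and on the log2 scale, and spots of a probe were averaged, with limma 3.58.1 in R 4.3.3. Control spots were left out, and the probe of highest mean stood for a gene. One linear model with 6 group terms and empirical Bayes moderation (lmFit and eBayes) was fitted over all 36204 gene names, and every adjusted p in the text is two-sided and from it, or, where a setting or a left-out array is named, from the same model refitted with limma. One name could not be fitted in some comparisons, which left 36203. The fit was tested on simulated data. Motif searches used Python 3.11.15 and pandas 2.3.3. The value table of the series was not used, because its rows carry no gene name.

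The 10 genes and all gene lists were chosen with earlier results of these data known. Besides them, the text names all other genes of the family, up to 4 genes of each list that were called between the lines in at least 2 treatments, up to 6 called neighbours within 300 kb by size after OXA, and the most correlated genes, 5 for *KLK12* and 3 for each other gene well above background on all arrays, except where a name is not reported here.

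Alternatives were offsets of 16 and 50, scaling of each array to its 75th percentile (of the processed signal or after normexp), probes above background only, averaging all probes of a gene, Benjamini-Hochberg adjustment, a fold limit of 2, the groups compared alone, the slide or the replicate number as a block, each slide alone, and leaving out each array. Arrays lay on 3 slides (2, 8 and 8 arrays, the smallest holding HT29 only). Replicate numbers come from the labels, which do not say what a shared number means. Deviations of all same-numbered arrays correlated above 0.1 for OXA in HT29 (0.12 to 0.24) and for adding Curcumin in HTOXAR3 (0.11 to 0.19), where all 3 pairs shared a slide, and not in the other comparisons.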

Additional observations from a re-analysis of the deposited data

Results flagged for a closer look

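The response of *KLK8* to OXA plus Curcumin differed between the lines, at -0.88 on the log2 scale (HTOXAR3 minus HT29) in the test of the interaction itself (limma, adjusted p = 0.0151). HT29 went from a mean of 9.59 untreated to 10.47 with the combination. HTOXAR3 had a mean of 10.03 both untreated and with the combination. The call was lost in 8 of 25 alternatives. This comparison uses the untreated arrays on which the family was chosen, and the lines received different OXA doses. In the same comparison *VIL1* (-0.82) and *LGALS4* (-0.65) of 11 colonic markers, and *IVL* of 7 keratinocyte markers, were called lower. The part of these markers was not tested.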

How the results depend on the processing

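Over 21 results of single genes and all alternatives, 358 of 409 values kept the direction and, where a test applied, the call, 51 lost the call and 0 changed direction. These include 19 values of *KLK12* between the untreated lines, on which the family was selected, and counts for the untreated lines include it too, so neither bears on stability. With only the groups compared, fewer arrays entered the fit and counts of called genes fell. Among others, they were 2 between the untreated lines and 1 for OXA in HTOXAR3. They were 0 for adding Curcumin in HTOXAR3 and 0 for the difference of the responses to OXA plus Curcumin. With a fold limit of 2 they were 2 between the untreated lines, 0 for adding Curcumin in HTOXAR3 and 0 for that difference of responses. That limit also removed the calls of *KLK8* after OXA plus Curcumin and for OXA in HT29, and of *KLK11* for OXA in HTOXAR3. Benjamini-Hochberg adjustment gave 1 for adding Curcumin in HT29. It gave 1 for the difference of the responses to OXA and 2 for that of the responses to OXA plus Curcumin. It also added *KLK1* between the untreated lines, *KLK12* after OXA and *KLK11* for OXA in HT29. An offset of 50 and probes above background only gave 1 for the difference of the responses to OXA. The processed signal gave 4 after OXA, where *KLK6* and *KLK12* were added. The cause was not tested. Leaving out 1 array gave counts of 4 to 5 between the untreated lines, 2 to 3 after OXA, 2 to 3 after OXA plus Curcumin, 4 to 4 for OXA in HT29, 2 to 3 for OXA in HTOXAR3, 0 to 0 and 1 to 2 for adding Curcumin in HT29 and HTOXAR3, and 0 to 1, 0 to 1 and 0 to 0 for the differences of the responses to OXA, OXA plus Curcumin and Curcumin. With the replicate number as a block, the counts stayed at 4 for OXA in HT29 and 2 for adding Curcumin in HTOXAR3. Same-numbered arrays correlated above 0.1 there but also shared a slide, so pairing by number cannot be told from the slide. In the other comparisons the block changed only the call of *KLK7* for OXA in HTOXAR3 (1.01, adjusted p = 0.0621). Other scalings moved the median of all gene names by up to 0.15 upward and, on the processed signal for OXA in HTOXAR3, by -0.20, and 51 values that lost a call included none for *KLK10* and *KLK11* between the treated lines. Dim probes limit what can be said of *KLK5*, *KLK13* and *KLK14*.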
